A study of Mus musculus with 6 samples.

Results

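Alpha granules are the storage granules of platelets. Described here are 10 genes listed under the clotting, adhesive and matrix proteins of these granules: Vwf, F5, F13a1, Thbs1, Mmrn1, Sparc, Fn1, Serpine2, Clu and Timp3. Only RNA was measured, so whether each protein is packed into the granules was not tested. The genes were grouped by what their proteins do, with earlier results of these data known. On the array, 16 of 41174 probes carried a RefSeq accession of these genes, and 10 of the 18217 genes with a symbol on the array are members. Of the 16 probes 15 were bright enough to be tested, so that all 10 genes were tested among 12948 genes with a symbol.

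The samples were primary megakaryocytes, the cells that shed platelets, cultured from C57BL/6 mouse fetal livers at E13.5, a day count of embryonic age. A group of 3 samples was p45-/-, lacking the large NF-E2 subunit p45, a transcription factor protein encoded by Nfe2, and a group of 3 was wild type (WT). The design speaks of 3 independent experiments, and whether the p45 loss is present in every cell, how the cultures were grown and whether livers were pooled is not given in the sources used here. The extraction protocol names whole embryos as the source of the RNA, against the culture named in the source field, and the samples are called cultures here after the latter. Each was read on its own single-colour Agilent array, on which a level is the log2 processed intensity of a probe minus the 75th percentile of its array, so that 0 is the brightness of the upper quartile.

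During maturation a megakaryocyte fills its alpha granules with proteins that it makes itself and with others that it takes up from plasma. A platelet that meets an injured vessel wall releases them, so that adhesive proteins anchor the platelet, clotting factors build and crosslink fibrin, and inhibitors limit proteases at the site. NF-E2 is a heterodimer of p45 and a small Maf protein that is known for driving late megakaryocyte maturation and platelet release. Because cultures were measured in bulk, fewer megakaryocytes in a culture and less RNA of a gene in each megakaryocyte cannot be told apart.

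The p45-/- array 1 was dimmer than the others, with a 75th percentile of 135 intensity units against 339 to 589 on the other 5. Its correlation with the other arrays over the tested probes was 0.786 to 0.887, against 0.939 to 0.983 among the rest. Samples of the same replicate number deviated together from their group means, with correlations of 0.638, 0.573 and 0.296 for numbers 1, 2 and 3, and same-numbered samples are treated as pairs below. For number 3 the correlations do not bear out the pairing, since p45-/- array 3 correlated more with a WT array of another number, at 0.591, than with its partner. Counts over 3 pairs and fits with the block rest on this pairing all the same. Both arrays of number 3 shared a slide and the other 4 arrays shared another. The Nfe2 probe read 4.87, 6.43 and 6.34 in the p45-/- samples numbered 1, 2 and 3, against 5.24, 6.57 and 6.33 in their WT partners. Where it lies relative to the deleted sequence is not known, so it does not check the genotype, and every direction here refers to the arrays as labelled.

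F5, F13a1, Thbs1, Mmrn1 and Vwf were lower on the p45-/- array than on its WT partner in all 3 pairs. That makes 5 of 10 members, where 25.7% of all tested probes did the same, and 6 of 10 were lower on average, as were 56.9% of probes. Without replicate 1 of both groups the same 5 were lower, and without p45-/- array 1 alone only F5, F13a1 and Thbs1 were lower, with a median over the 10 members of 0.34 in place of -0.31. Serpine2, a protease inhibitor, was higher in all 3 pairs, as were 20.8% of tested probes, and Sparc, Fn1, Clu and Timp3 went both ways. None of these differences passed limma's test across all probes, with adjusted p-values of 0.709 to 0.959, and 0 of 10 members were called, without or with the replicate number as a block, where the background is 0.0% and 0.305% of probes. At an unadjusted p under 0.05 only F13a1 passed among the members, against 6.13% of all probes, and with the block 3 members passed, F5, F13a1 and Thbs1, against 19.5%. Groups did not overlap for 1 of 10 members, F13a1, which was lower, where 8.97% of tested probes were separated in that direction and 4.47% in the other. All 10 members had their lowest p45-/- value on array 1 and 8 of 10 had their lowest WT value on WT array 1.

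**Figure D1:**
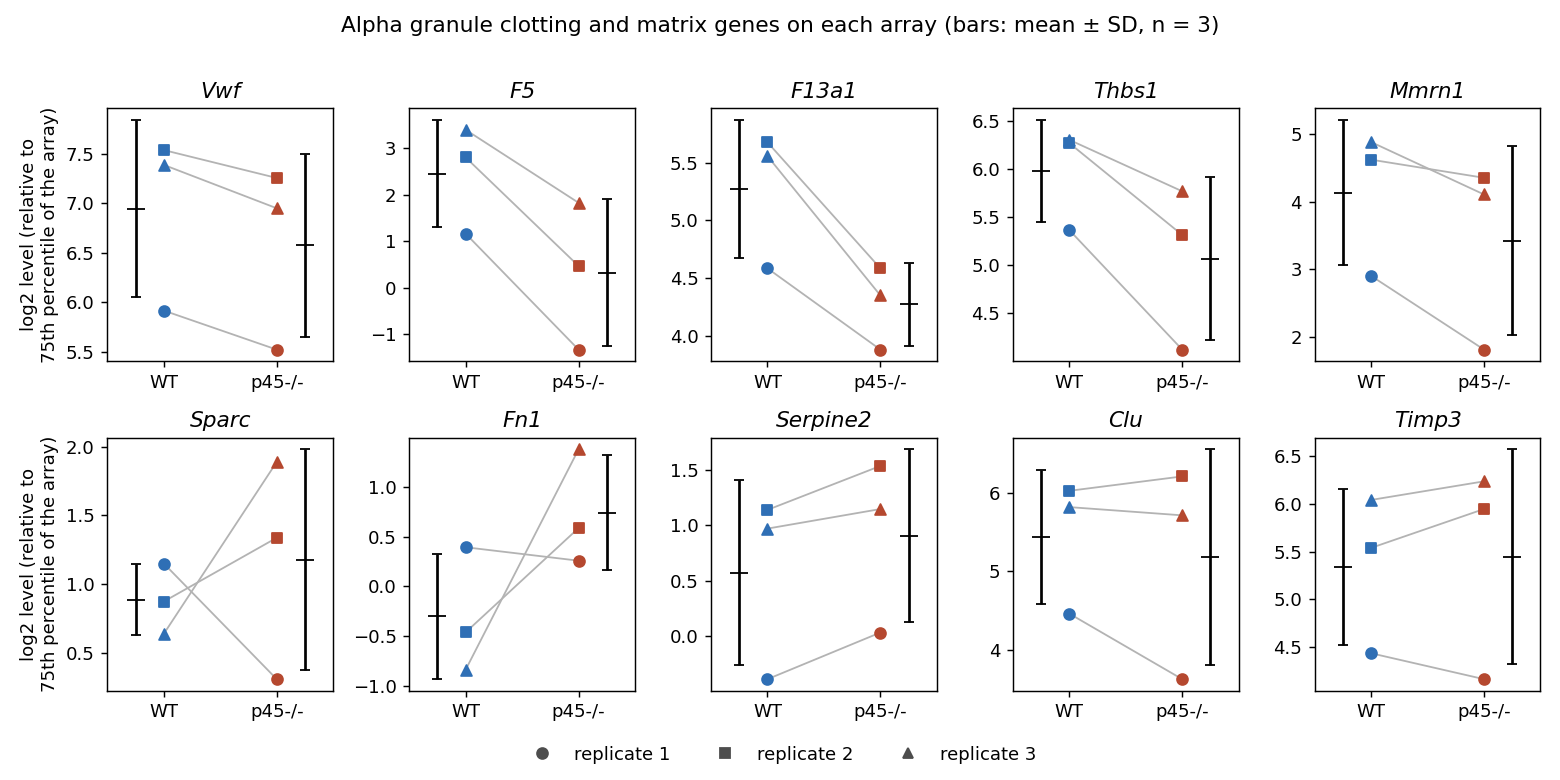
Log2 level of each member on every array, relative to the array's 75th percentile, for WT (blue) and p45-/- (red). Lines join arrays of the same replicate number, and bars show mean ± SD of 3 arrays. F5, F13a1, Thbs1, Mmrn1 and Vwf slope down in all 3 pairs and Serpine2 slopes up, while replicate 1 sits lowest in both groups for most genes.

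F5 encodes coagulation factor V, which once activated serves as the cofactor of factor Xa in making thrombin. It showed the largest difference of the 10 members, 4.40-fold lower on average in p45-/- cultures. Its log2 level was 1.16, 2.81 and 3.40 on WT arrays 1, 2 and 3, while the p45-/- partners read -1.34, 0.47 and 1.83. In processed intensity units, before any scaling, this was 760, 4083 and 6081 against 53.7, 563 and 2093. Each p45-/- value was below that of its partner, but WT array 1 was lower than p45-/- array 3, so the groups overlapped. The means were 0.32 ± 1.59 and 2.46 ± 1.16 (SD, n = 3 each), a difference of -2.14 with a standard error of 0.91, a 95% interval of -4.30 to 0.029 and a limma adjusted p of 0.709. The exact permutation test, two-sided, gave p = 0.2, and the smallest p that 3 against 3 arrays allow is 0.1. Within pairs the differences were -2.50, -2.34 and -1.57, and with the replicate number as a block the standard error was 0.31, the interval -2.90 to -1.38 and the limma adjusted p 0.0602, which missed the threshold of 0.05. On the slide that held 4 arrays the difference was -2.42.

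F13a1 encodes the A chain of factor XIII, the transglutaminase that crosslinks fibrin, and its level was 2.00-fold lower. It read 4.58, 5.68 and 5.56 on WT arrays 1, 2 and 3 and 3.88, 4.58 and 4.35 on the p45-/- arrays. The highest p45-/- array and the lowest WT array were separated in the fourth decimal of the log2 level, 4.5837 against 4.5839, a gap far below the SD within either group. The difference was -1.001 with a standard error of 0.40 and a 95% interval of -1.95 to -0.054, and the limma adjusted p was 0.709. Within pairs it was -0.70, -1.09 and -1.21.

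The bases before the F5 and F13a1 starts are shown because these were the members furthest below WT. RefSeq windows of 300 bases, 250 before and 50 after a transcript start, were found for 6 of the 10 members, Mmrn1, Sparc, Serpine2 and Timp3 besides these, in a table of 32851 windows on GRCm38.p6. The 250 bases upstream follow 5′ to 3′ on the strand of the gene, at chr1:164151585-164151834 on the plus strand for F5 and at chr13:37049214-37049463 and chr13:37050245-37050494 on the minus strand for F13a1, which has 2 starts in the table. Capitals mark the ETS-type motif AGGAAG, which reads CTTCCT on the opposite strand.
F5: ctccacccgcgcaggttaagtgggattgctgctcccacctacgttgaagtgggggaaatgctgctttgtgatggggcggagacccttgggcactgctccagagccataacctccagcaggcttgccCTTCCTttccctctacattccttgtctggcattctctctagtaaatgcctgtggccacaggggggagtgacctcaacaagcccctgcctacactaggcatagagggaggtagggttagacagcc
F13a1 downstream start: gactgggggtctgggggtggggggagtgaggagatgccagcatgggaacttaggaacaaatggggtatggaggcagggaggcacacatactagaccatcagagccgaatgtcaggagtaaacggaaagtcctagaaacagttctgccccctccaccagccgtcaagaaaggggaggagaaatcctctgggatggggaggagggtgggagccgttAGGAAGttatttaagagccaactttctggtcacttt
F13a1 upstream start: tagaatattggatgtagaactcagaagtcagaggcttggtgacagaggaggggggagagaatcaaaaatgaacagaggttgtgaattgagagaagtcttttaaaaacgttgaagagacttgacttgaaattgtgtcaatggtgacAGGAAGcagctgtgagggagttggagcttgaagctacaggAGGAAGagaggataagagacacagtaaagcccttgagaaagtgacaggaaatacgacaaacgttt

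Motifs of megakaryocyte transcription factors were searched on both strands of the 300-base windows. The core TGANTCA, shared by NF-E2 and AP-1 type sites, was in 0 of the 7 member windows and in 7.81% of all windows. The GATA-type motif AGATAA was in 0 of 7 and in 11.2%. Other GATA-type forms were not searched, such as TGATAA, which the Mmrn1 window holds. The ETS-type motif was in 5 of 7 member windows and in 35.4% of all windows, in those of F5, F13a1 (both), Serpine2 and Timp3. A match is only a run of letters, and a window without one says only that these letters are not in its 300 bases.

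Mmrn1 encodes multimerin 1, the large granule protein that binds and stores factor V in platelets. It was 1.64-fold lower, with levels of 2.90, 4.63 and 4.89 on the WT arrays and 1.81, 4.36 and 4.11 on the p45-/- arrays. Array 1 was the lowest of both groups by more than 1 log2 unit, and the groups overlapped. The difference was -0.71 with a standard error of 0.83 and an interval of -2.68 to 1.26 (limma adjusted p = 0.778), and the pairs gave -1.09, -0.27 and -0.78. The binding protein was thus lower by less than its cargo F5 in each of the 3 pairs, a difference that was not tested.

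Vwf encodes von Willebrand factor, the multimer that tethers platelets to exposed collagen. Its brighter probe read 5.92, 7.54 and 7.39 on the WT arrays and 5.52, 7.26 and 6.95 on the p45-/- arrays. The 3 pairs lay close to each other, at -0.39, -0.28 and -0.44, while the 2 other experiments stood well above number 1 in both groups. Over the groups the difference was -0.37 with a standard error of 0.63 (limma adjusted p = 0.844). With the block the interval was -1.03 to 0.28. The second Vwf probe gave -0.24, -0.21 and -0.36 within pairs, the same direction at each number.

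Thbs1 encodes thrombospondin 1, an adhesive glycoprotein that bridges platelets, integrins and matrix. Its brightest probe read 5.37, 6.27 and 6.31 on the WT arrays and 4.12, 5.32 and 5.77 on the p45-/- arrays. WT array 1 was below p45-/- array 3, so the groups overlapped, and the difference of -0.91 had a standard error of 0.51 (1.88-fold lower, limma adjusted p = 0.709). The other 2 Thbs1 probes gave -0.76 and -0.81, or 1.69-fold and 1.75-fold, so that 3 of 3 probes were lower in all 3 pairs, within -1.25 to -0.49.

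**Figure D2:**
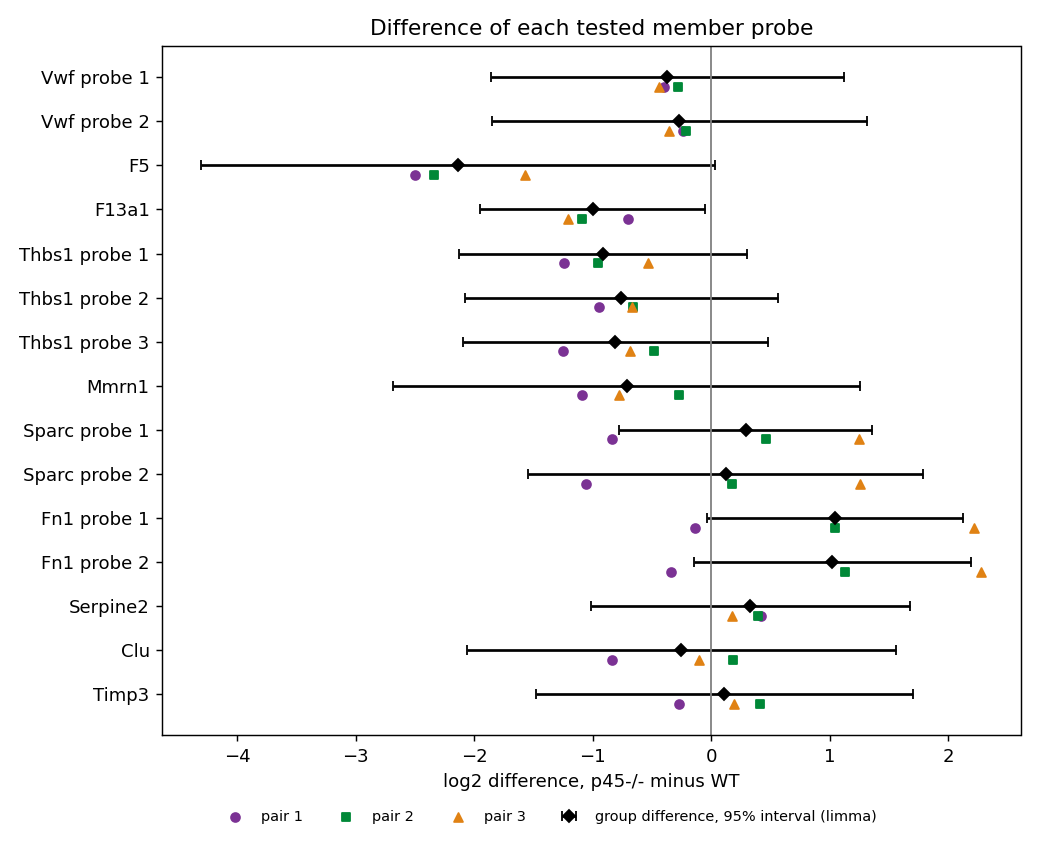
Log2 difference p45-/- minus WT of each tested member probe, as the limma group difference with its 95% interval (black) and as the difference within each of the 3 replicate pairs (coloured). F5 and F13a1 lie furthest to the left, and the pair values of Fn1 and Sparc spread on both sides of 0. Only the F13a1 interval leaves out 0.

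Fn1 encodes fibronectin, a matrix protein that integrins bind and that platelets also take up from plasma. Its level was 2.06-fold higher, the largest difference upward among the 10 members. The main probe, printed as 10 spots per array, read 0.39, -0.46 and -0.84 on the WT arrays and 0.26, 0.58 and 1.38 on the p45-/- arrays. WT array 1 was above p45-/- array 1, so the groups overlapped, and the 2 other pairs were higher in p45-/- by 1.05 and 2.21. The difference was 1.04 with a standard error of 0.45 and an interval of -0.039 to 2.12 (limma adjusted p = 0.709). Repeat spots within an array differed by an SD of 0.066 to 0.079, far less than the arrays did. The second probe gave -0.34, 1.13 and 2.28 within pairs, and another was well above background on 1 p45-/- array and 0 WT arrays and was not tested. On the slide without replicate 3 the difference was 0.46.

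Sparc encodes osteonectin, a collagen-binding protein of matrix and granules. It read 1.15, 0.87 and 0.64 on the WT arrays and 0.31, 1.34 and 1.89 on the p45-/- arrays, spread on both sides of the WT range. The pairs gave -0.84, 0.46 and 1.25, and the difference was 0.29 with a standard error of 0.45 (limma adjusted p = 0.830). The second Sparc probe gave -1.06, 0.18 and 1.25. On the slide without replicate 3 the main probe had a difference of -0.19, and without replicate 1 it was 0.86, so the sign rested on which experiment was kept.

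Fibroblasts and liver cells also make Fn1 and Sparc, and markers of other fetal liver cells were read beside them. Over all genes with a symbol, against which the lists are to be read, 61.1% were lower. Their median was -0.12, and within pairs -0.52, 0.085 and 0.065. Of 12 tested fibroblast and stellate markers 11 were higher in p45-/- and 1 lower, with a median of 0.52 and medians within pairs of -0.80, 1.08 and 1.67. The summed linear level of the list, with the 75th percentile of the array as 1, was 50.05 to 57.3 on WT and 30.6 to 70.2 on p45-/- arrays. Acta2, the 1 lower marker, was by far the brightest and weighs most in this sum. Sums here and below take every gene of a list on the array, tested or not. All 10 tested hepatoblast markers were higher, with a median of 0.94, within pairs -0.078, 1.35 and 1.87, and sums of 41.3 to 96.8 against 82.6 to 178. Of 11 macrophage markers 7 were higher, with a median of 0.41, within pairs -0.23, 0.87 and 0.49, and sums of 104 to 232 against 131 to 178, and of 10 endothelial markers 7 were higher, with a median of 0.42, within pairs 0.32, 0.58 and 0.48, and sums of 6.34 to 7.47 against 5.64 to 8.60. None was called, and under median scaling, where the median of all genes was -0.64, the macrophage and endothelial medians turned to -0.10 and -0.094 and the fibroblast median was 0.0098. Lrat and Cd163 were not well above background on any array. Their part in the Fn1 and Sparc values was not tested. Among the 2 genes with the smallest p of each list, Acta2 was at -0.81 and Tagln at 1.22 (fibroblast), Apob at 1.19 and Apoh at 1.27 (hepatoblast), Timd4 at 1.56 and Vcam1 at 1.10 (macrophage), and Ptprb at 1.38 and Stab2 at 1.05 (endothelial).

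Serpine2 encodes protease nexin 1, a serpin that inhibits thrombin and plasminogen activators. It read -0.38, 1.14 and 0.97 on the WT arrays and 0.035, 1.54 and 1.15 on the p45-/- arrays. Each p45-/- array was above its partner, by 0.42, 0.40 and 0.18, and the groups overlapped widely. The difference was 0.33 with a standard error of 0.57 (limma adjusted p = 0.847). Timp3, an inhibitor of metalloproteinases that stays bound to matrix, read 4.43, 5.54 and 6.04 against 4.16, 5.95 and 6.24, a difference of 0.11 with a standard error of 0.67 (limma adjusted p = 0.959). Clu encodes clusterin, a secreted chaperone, and it read 4.46, 6.03 and 5.82 against 3.63, 6.21 and 5.72, a difference of -0.25 with a standard error of 0.76 (limma adjusted p = 0.913). For both genes the pairs had both signs.

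The members were also set against megakaryocyte markers. Of 13 tested markers 11 were lower in p45-/-, none of them called without the block, with a median of -0.58 and medians within pairs of -0.78, -0.35 and -0.51. Over all genes with a symbol 61.1% were lower, with medians within pairs of -0.52, 0.085 and 0.065. Without p45-/- array 1 only 5 of the 13 were lower and the median was 0.026, and without replicate 1 of both groups 11 were lower with a median of -0.45. Summed levels were 993 to 1851 on WT and 793 to 1667 on p45-/- arrays. Gp6, the collagen receptor, was at -6.09 and Clec1b, the podoplanin receptor, at -4.53, with limma adjusted p = 0.255 and 0.319, and 0.0127 and 0.0387 with the block. The granule chemokine genes Pf4 and Ppbp were at 0.082 and 0.000043. Each array was then centred on the median deviation of these markers, a scaling added after the data were seen. On that scale F5 read 1.85, 2.06 and 2.68 on the WT and 0.12, 0.030 and 1.63 on the p45-/- arrays, so the groups no longer overlapped, as for 1.11% of probes in that direction. Vwf read 6.60, 6.79 and 6.67 against 6.98, 6.82 and 6.75, a difference of 0.16 in place of -0.37. Serpine2 read 0.30, 0.39 and 0.25 against 1.49, 1.10 and 0.95, and Timp3 5.12, 4.79 and 5.32 against 5.62, 5.51 and 6.04, both separated upward, as were 3.25% of probes. This scaling raised the median of all probes to 0.45, so these upward values are to be read against that, and 0 probes were called by limma. F13a1 read 5.27, 4.92 and 4.84 against 5.34, 4.15 and 4.15, so that its groups overlapped and pair 1 was at 0.070. F13a1, Thbs1 and Mmrn1 were at -0.46, -0.38 and -0.18 on this scale and Fn1 and Sparc at 1.58 and 0.83.

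**Figure D3:**
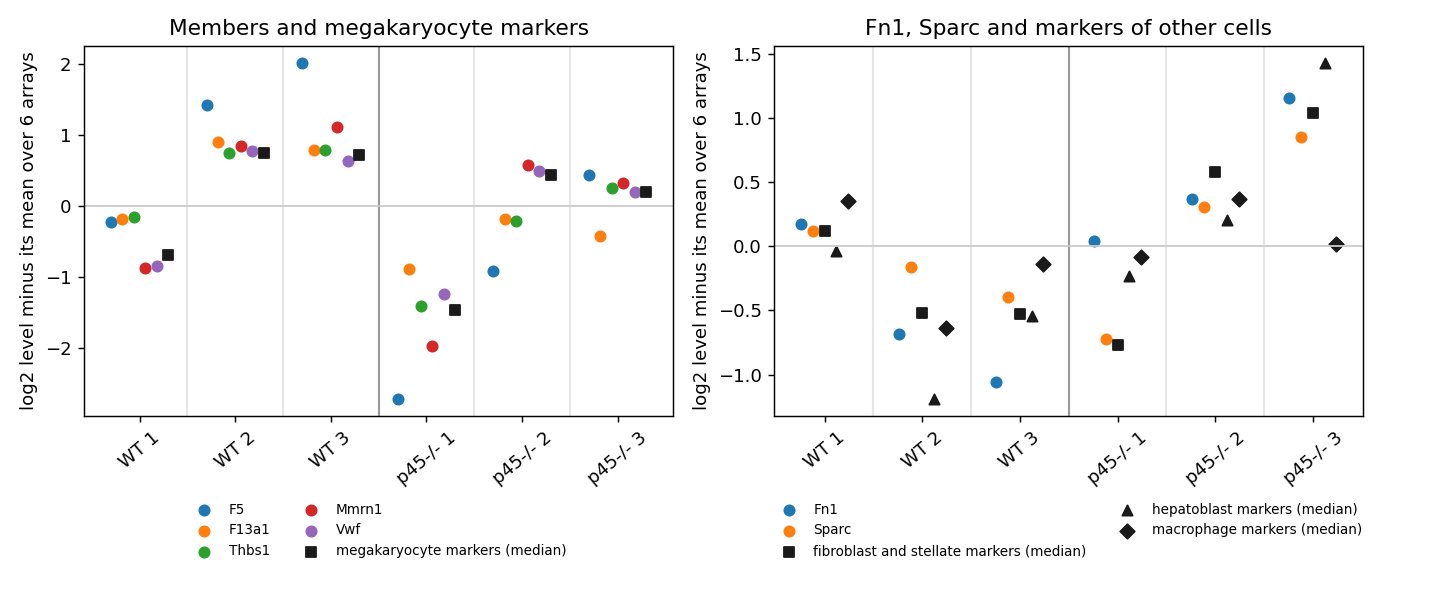
Log2 level of single members minus the gene's own mean over 6 arrays, beside the median of the same quantity over marker lists (black), for each array. Vwf lies close to the megakaryocyte markers on most arrays, while F5 lies further from 0 than Vwf except on WT array 1. On the right, Fn1 and Sparc are highest on p45-/- array 3, as are the fibroblast and hepatoblast markers.

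The remaining cell lists were checked in the same way. Of 14 erythroid markers 12 were higher in p45-/-, with a median of 1.78 and sums of 394 to 848 on WT and 499 to 2205 on p45-/- arrays, and within pairs the median was 1.67, 1.93 and 1.27. Groups did not overlap for 7 of them, all higher, where 4.47% of tested probes were separated in that direction. Tmod1 was at 2.07 and Trim10 at 3.22. No erythroid marker was called without the block, and Trim10 and Ermap were called with it (limma adjusted p = 0.0389 and 0.0481), as were 0.305% of tested probes. All 10 neutrophil markers were lower, with a median of -0.79 and sums of 621 to 1163 against 495 to 997, with Mmp8 at -1.79 and Elane at -1.23. Of 6 mast cell markers 4 were lower, with a median of -0.52 that was 0.049 under normexp background correction, and sums of 5.97 to 15.4 against 2.78 to 11.3, with Ms4a2 at -0.94 and Hdc at -0.79. Their part in the members' values was not tested.

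The members' profiles over the 6 arrays were compared after centring each gene on its own mean. Likeness was the root mean square difference in log2 units over the 6 arrays, taken against each of 12932 other genes. Near to Vwf were Reep2 at 0.069 and Prkag2 at 0.092. Nearest to F5 were Lgalsl at 0.353, Ndrg4 at 0.371 and Mcpt8, a basophil protease, at 0.373. The measure is not scaled by how much a gene varies, and centred F5 levels ran from -2.72 to 2.01, against -1.24 to 0.78 for Vwf. The larger distances of F5 therefore do not show that its profile was less like other genes. Nearest to Sparc were Zfp748 at 0.118, Fam114a1 at 0.119 and Ecscr at 0.126. Among members the closest were Vwf and Clu at 0.266, Mmrn1 and Clu at 0.308, F13a1 and Thbs1 at 0.350, and Serpine2 and Timp3 at 0.364.

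Other genes of the pathway were read from lists by function, none of which held a call without the block. Over the members 6 of 10 were lower with a median of -0.31, and over all genes with a symbol 61.1% were lower with a median of -0.12. The count of lower members was 5 under quantile normalization, 7 under normexp background correction and 9 under median scaling, where the median of all genes was -0.64. Other alpha granule cargo had 14 of 25 lower with a median of -0.18, which was 0.099 without p45-/- replicate 1 and 0.14 without replicate 1 of both groups. Selp, the adhesion receptor P-selectin of the granule membrane, read 2.29, 1.74 and 3.32 on the WT and -0.74, -1.20 and 0.81 on the p45-/- arrays, a difference of -2.83 with limma adjusted p = 0.453 and 0.0389 with the block, and Angpt1 was at -1.79. Genes for forming and releasing alpha granules had 19 of 20 lower with a median of -0.49, and 14 of 20 with -0.11 without p45-/- replicate 1, led by Vps33b, a sorting protein needed for alpha granules, at -1.66 and the fusion protein Stx11 at -1.56. Receptors and binding partners had 14 of 21 lower with a median of -0.27, with Lrp8 at -1.15 and Calr at -0.61.

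Of the clotting and fibrinolysis list 18 of 28 were higher, with a median of 0.52 and medians within pairs of -0.41, 0.84 and 1.18. Under median scaling 14 were higher and 14 lower. The list holds plasma factors together with cell-surface proteins such as Thbd and Procr and processing proteins such as Lman1 and Ggcx. F2, the thrombin precursor, was at 1.54 and Serpinc1, antithrombin, at 1.28, with limma adjusted p = 0.632 and 0.709. Relatives of the members and other matrix proteins had 20 of 26 higher with a median of 0.74, within pairs -0.42, 1.24 and 1.01, with Fbln2 at 1.33 and Ecm1 at -1.29, both with limma adjusted p = 0.503. Both lists hold genes made in liver and stroma, and their relation to the marker values above was not tested.

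**Figure D4:**
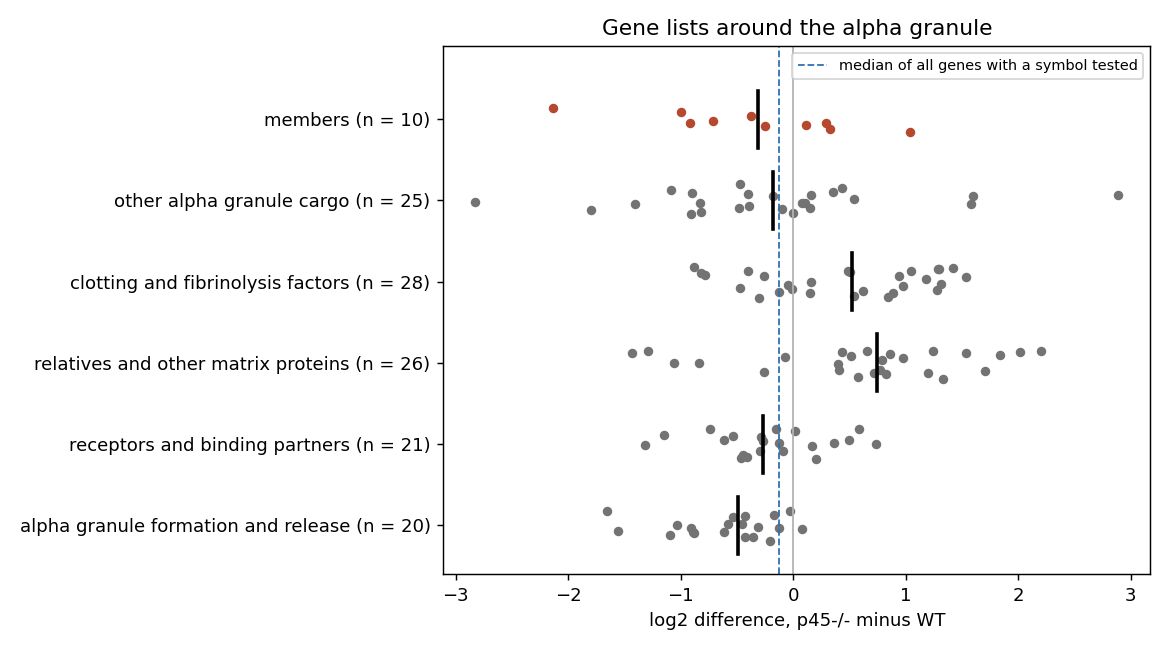
Log2 difference p45-/- minus WT of each tested gene in the members and in 5 lists, with the median of each list as a black bar and the median of all genes with a symbol as a dashed line. Genes for alpha granule formation and release lie almost all left of 0, while most matrix relatives and clotting factors lie right of it.

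Across 23 settings for F5 and F13a1, 25 for Thbs1 and 24 for Fn1, these 4 members kept their direction. Some of these settings, such as the block alone and the probe filters, cannot move a difference, so the counts overstate how often the direction was put to a test. F5 ranged from -2.89 to -1.31, F13a1 from -1.51 to -0.46, Thbs1 from -1.42 to -0.38 and Fn1 from 0.46 to 2.21. Vwf, Mmrn1, Sparc, Serpine2, Clu and Timp3 changed sign in at least 1 setting each.

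**Figure D5:**
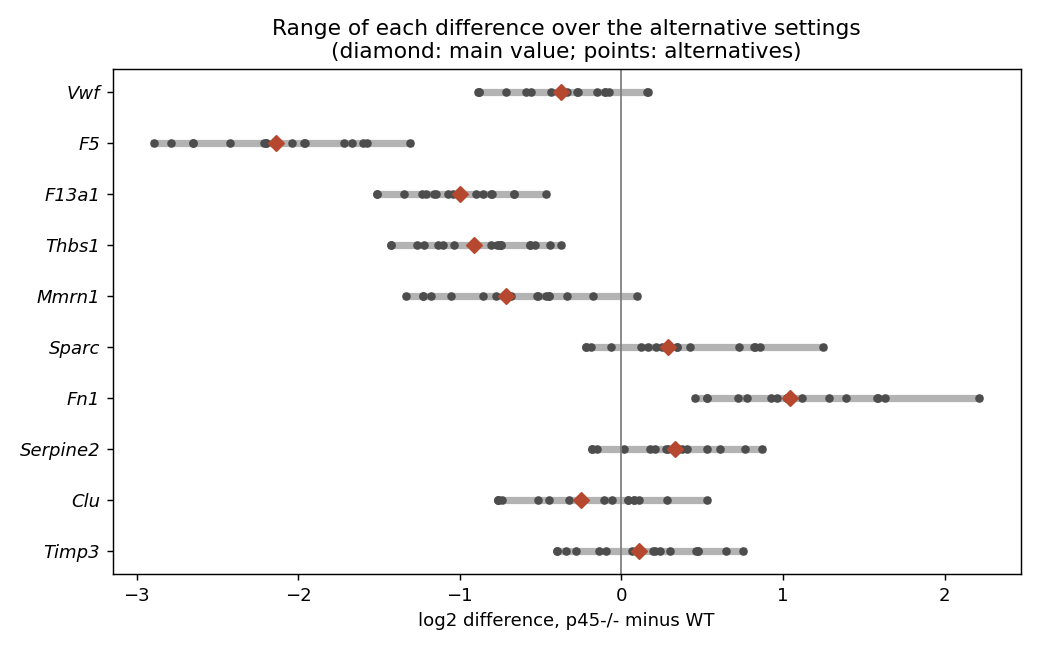
Main log2 difference p45-/- minus WT of each member (diamond) and its values under the alternative settings (points), with the range as a grey bar. The ranges of F5, F13a1 and Thbs1 stay below 0 and that of Fn1 stays above it, and the other 6 cross it.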

How the data were processed

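Total RNA was labelled with Cy3, per the labels' protocols. The authors' deposited intensity of a spot is linear, background-subtracted and detrended for position on the array, per the file headers, with no scaling across arrays. The headers name Feature Extraction 10.7.3.1 and the submitters' processing notes 10.1. Here each intensity was turned into log2 and the 75th percentile of its array was subtracted. Control spots were left out, flagged spots (32 to 80 per array) were set to missing, spots of a probe were averaged, and no spot was saturated. Probes well above background on all 3 arrays of a group were kept, 23959 of 41174. RefSeq accessions were matched without versions to GRCm38.p6 symbols (26690 probes). The brightest probe on average stands for a gene. Groups were compared with limma 3.58.1 in R 4.3.3 (lmFit, eBayes, no block, Benjamini-Hochberg over all probes, threshold 0.05). The fit was tested on simulated data with independent errors. That simulation had no dim array and no shared replicate effect, so it does not cover these features of the arrays. Only 3 arrays per group limit the precision. The p-values weigh a difference against the spread between these samples, which without the block includes what arrays of a replicate number share.

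The members and lists were chosen with earlier results of these data known. Named list genes are those called or, where none is, the 2 with the smallest p. For Vwf, F5 and Sparc, an adhesive protein, a clotting factor and a matrix protein, the 3 genes with the most similar profile are named, except 1 that is not reported here. Alternatives were other scalings, background correction on median signals (the mean signal was not used here), filters, the replicate block, slide subsets and leaving out arrays. The labels do not state a pairing. Pairing by replicate number was taken from the correlations of replicate deviations, which did not bear it out for number 3.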

Additional observations from a re-analysis of the deposited data

How the results depend on the processing

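The count of probes called was 0, and it was 73 with the replicate block, 13 with median scaling, 512 with array weights, 21 without replicate 1 of both groups, 2037 with block and median scaling together, 5 with the block over 1 probe per gene, and 0 with block and quantile normalization, where F5 had limma adjusted p = 0.292 and the calls of Gp6, Clec1b, Selp, Trim10 and Ermap were lost. Leaving out each array gave 0 to 1. Members called numbered 0, and 3 with block and median scaling (F5, F13a1 and Thbs1, limma adjusted p = 1.88e-05, 0.0338 and 0.04995). In that setting every member had the same standard error, 0.498, so the spread of each gene did not enter these calls. The replicate block changed no other member's call. Signs reversed as follows. Vwf was at 0.16 without p45-/- replicate 1 and with megakaryocyte marker scaling, and Mmrn1 at 0.095 without p45-/- replicate 1. Sparc was at -0.19 on the 4-array slide, -0.22 with median scaling and -0.064 without p45-/- replicate 3. Serpine2 was at -0.18 with median scaling and -0.15 without WT replicate 1. Clu was at 0.075 with quantile normalization, 0.11 with array weights, 0.53 without p45-/- replicate 1, 0.043 without WT replicate 2, 0.039 without replicate 1 of both groups and 0.28 with marker scaling. Timp3 was at -0.098 with normexp, -0.40 with median scaling, and -0.14, -0.28 and -0.34 without p45-/- replicate 2, p45-/- replicate 3 and WT replicate 1. Leaving out 1 array in turn, Vwf ranged from -0.89 to 0.16, Mmrn1 from -1.33 to 0.095, Sparc from -0.064 to 0.72, Serpine2 from -0.15 to 0.77, Clu from -0.77 to 0.53 and Timp3 from -0.34 to 0.75. Of 235 alternative member values 207 were classed as the same, 23 reversed, 2 moved and 3 became calls. The same meant the same direction and side of the threshold, except on the slide that held both arrays of number 3. There no test was possible, and the same meant within the SD pooled over both groups of the main value. Sparc and Fn1, at 1.25 and 2.21 on that slide, were the 2 that moved. The replicate or slide block alone and the probe filters leave each difference at its main value by construction. Their values are counted among the 207 but could not have reversed. The cause was not tested. Marker scaling and the block combined with other choices were added after the data were seen. With 3 arrays a group, 1 of them dim, the members' standard errors were 0.40 to 0.91, and F5 at -2.14 was not called.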
